A study of Homo sapiens with 2 samples.

Results

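The genes described here encode the machinery that brings nuclear-encoded proteins into mitochondria and folds them there. They were chosen by symbol: every numbered TIMM and TOMM gene in the deposited table, together with TIMMDC1, PAM16, DNAJC19, GRPEL1, GRPEL2, HSPA9, HSPD1, HSPE1, CHCHD4 and GFER. That rule found 34 genes among 57351 symbols. RNA-seq was run on 22Rv1, a human prostate cancer cell line that grows without androgen. One library came from cells expressing a short hairpin RNA against EIF3F (shEIF3F), and the other from cells with the vector control (shCON). EIF3F encodes a subunit of eIF3, the factor that assembles the small ribosomal subunit with initiator tRNA and mRNA.

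Most mitochondrial proteins are made on cytosolic ribosomes. The TOM complex of the outer membrane receives them, and they then take separate routes. Proteins with a cleavable presequence pass through the TIM23 complex and are pulled into the matrix by an ATP-driven motor built around the HSP70 protein HSPA9. Carrier proteins of the inner membrane are escorted by small TIM chaperones to the TIM22 complex, and cysteine-rich proteins of the intermembrane space are trapped there by a disulfide relay. In the matrix, the chaperonin made of HSPD1 and HSPE1 folds the newcomers.

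Each group had 1 library, so the differences below have no replicates behind them and come without errors or tests. With 1 hairpin library, effects of the hairpin other than EIF3F loss cannot be told apart from it. Values are TPM, transcript abundance per unit of length, scaled by the authors to each library's total. TPM keeps no read number and the depth is unknown. EIF3F itself was at 17.0 TPM in shEIF3F and 991 TPM in shCON, 1.72% of the control level, in the direction of the labels. All 11 prostate luminal markers of the list used here reached a mean of 1 TPM. At least 2-fold lower in shEIF3F were 5 of them (45.5%, against 25.5% of all genes), and 2 were higher, against 8.45%. These counts depend on the scale. Relative to the median of all genes, 2 were lower and 3 higher, and the same counts held with the trend across transcript GC content removed. The secreted kallikreins KLK2 and KLK3 were at 2.5 and 1.94 TPM in shEIF3F and at 32.6 and 9.71 TPM in shCON (log2 ratios -3.26 and -1.87). The surface proteins FOLH1 and EPCAM stood the other way, at 482 and 60.5 TPM in shEIF3F and at 146 and 17.5 TPM in shCON (1.72 and 1.73). Macrophage, endothelial and fibroblast markers summed to 5.81, 0.05 and 5.81 TPM in shEIF3F and to 1.43, 0.01 and 15.8 TPM in shCON. Of these, CD68 had 5.34 TPM in shEIF3F and 1.2 TPM in shCON, DCN 4.86 TPM in shEIF3F and 12.9 TPM in shCON, and COL1A1 0.83 TPM in shEIF3F and 2.43 TPM in shCON. PTPRC, which marks blood cells, was at 0.03 TPM in shEIF3F and 0.11 TPM in shCON, and the endothelial VWF and CDH5 were listed at 0 in both.

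Import and chaperone transcripts took a smaller share of the shEIF3F library. Together they held 2585 TPM in shEIF3F and 4002 TPM in shCON, or 0.26% of all TPM in shEIF3F and 0.403% in shCON. In these bulk libraries, fewer cells with a transcript and less of it per cell cannot be told apart. Log2 ratios were taken of shEIF3F over shCON after adding 1 TPM to each value, so the ratio of scarce genes is understated. Genes averaging under 1 TPM were given no ratio. Of the 34 genes, 33 met that minimum. The exception was TOMM20L, a paralog of TOMM20, with 0.15 TPM in shEIF3F and 0.28 TPM in shCON. No gene of the family was listed at 0.

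At least 2-fold lower in shEIF3F, meaning a log2 ratio of -1 or less, were 7 of the 33 genes (21.2%): TIMM13, TOMM22, PAM16, TIMM44, TOMM5, TOMM40L and TIMM10. Over all 13309 genes tested, 25.5% were at least 2-fold lower, so on the deposited scale the share of lower genes in the family was close to that of the transcriptome. None of the 33 was at least 2-fold higher, against 8.45% of all genes. The log2 ratios ran between -2.47 for TIMM13 and 0.79 for TIMMDC1 around a median of -0.57, where the median of all genes was -0.36. Negative ratios were seen for 27 of the 33 genes (81.8%) and for 65.3% of all genes.

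The scale of the comparison matters for these counts. In shEIF3F 59.7% of TPM went to the 100 genes of highest level, against 45.4% in shCON, and since TPM has a fixed total, this leaves less of it for all other genes in shEIF3F. Relative to the median of all genes, the family median was -0.21, and 21 of the 33 genes (63.6%) lay below it. On that scale 3 of the 33 genes remained at least 2-fold lower (TIMM13, TOMM22 and PAM16), a smaller share than the 16.0% of all genes. TIMM10B and TIMMDC1 were then at least 2-fold higher, against 14.7% of all genes. Removing the trend with transcript GC content left 2 of the 33, TIMM13 and TOMM22, at least 2-fold lower, a smaller share than the 14.0% of all genes. TIMM10B and GFER were then at least 2-fold higher, against 13.2%. TIMM13 and TOMM22 were at least 2-fold lower on every scale tried. Ratios below are as deposited, and a value relative to all genes is named as such.

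**Figure D1:**
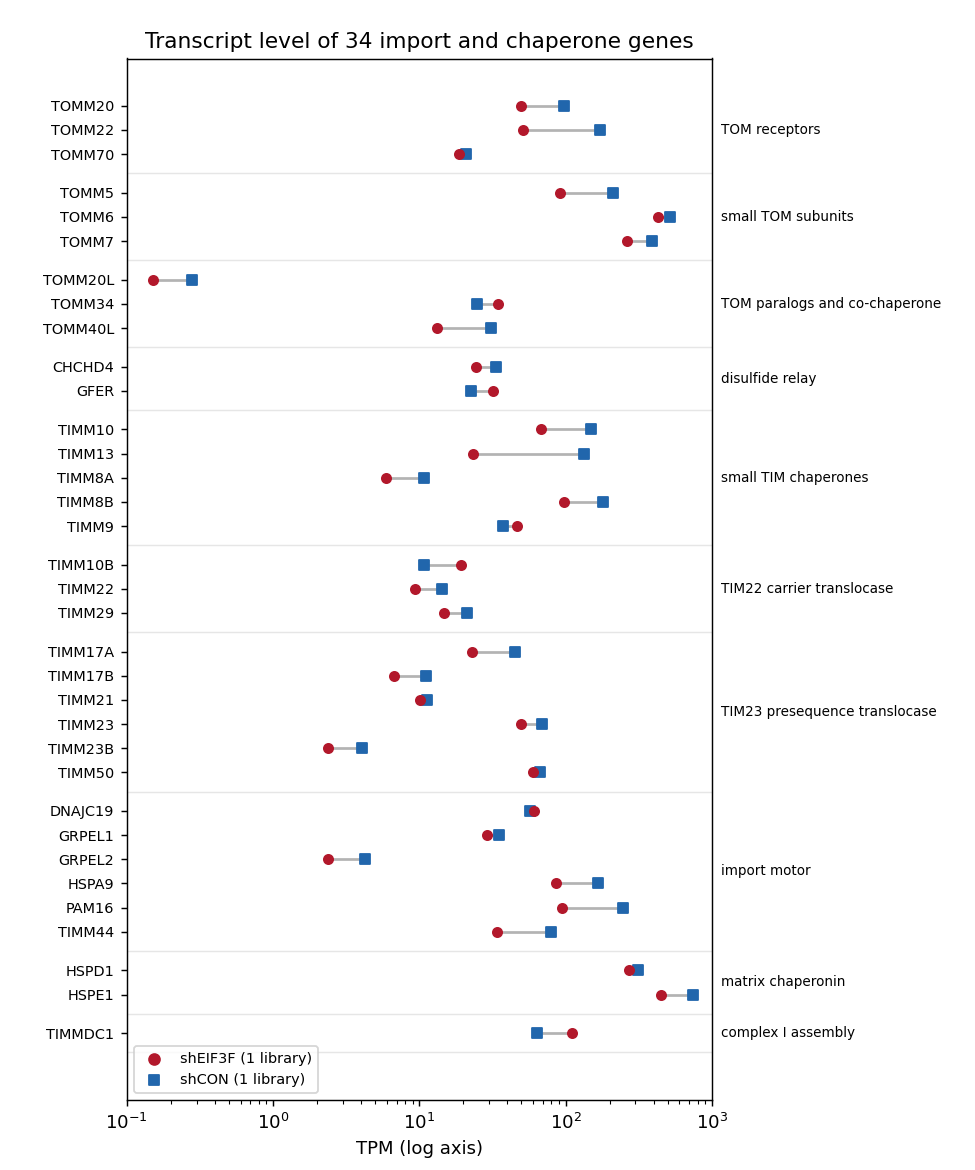
Transcript level of the 34 import and chaperone genes by role, in TPM on a log axis, with shEIF3F as red circles and shCON as blue squares, 1 library each. Most red circles lie left of their blue squares on the deposited scale, farthest for TIMM13 at 23.3 TPM in shEIF3F and 133 TPM in shCON. TIMM10B, TIMMDC1, GFER, TOMM34, TIMM9 and DNAJC19 lie to the right.

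**Figure D2:**
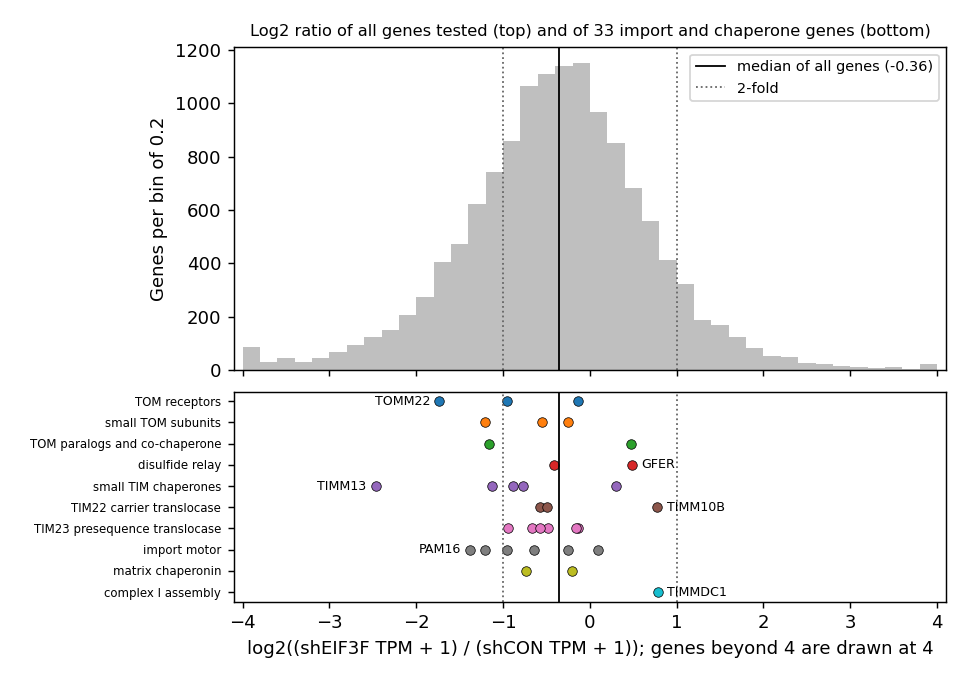
Log2 ratio of all 13309 genes tested as a histogram (top) and of the 33 import and chaperone genes by role (bottom). The solid line is the median of all genes, -0.36, and dotted lines mark 2-fold. The family covers -2.47 to 0.79, within the spread of the other genes.

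At the outer membrane, the receptors that recognise incoming precursors differed from one another. TOMM22, the central receptor that also holds the TOM complex together, was at 51.3 TPM in shEIF3F and 173 TPM in shCON, 29.7% of the control level (log2 ratio -1.73, and -1.38 relative to all genes). TOMM20, the presequence receptor, was at 50.02 TPM in shEIF3F and 98.1 TPM in shCON (-0.96). TOMM70, the receptor for carrier precursors bound by cytosolic HSP70 and HSP90, was at 18.8 TPM in shEIF3F and 20.8 TPM in shCON (-0.13, and 0.22 relative to all genes). In shCON, TOMM22 was thus the most abundant receptor transcript, whereas in shEIF3F TOMM20 and TOMM22 stood at nearly the same level.

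The small TOM subunits, which steady the complex, were among the most abundant members. TOMM5 was at 91.05 TPM in shEIF3F and 211 TPM in shCON (log2 ratio -1.21, but -0.85 relative to all genes). TOMM6 was at 431 TPM in shEIF3F and 515 TPM in shCON (-0.26, and 0.10 relative to all genes), and TOMM7, which is also needed for PINK1 to build up on damaged mitochondria, at 265 TPM in shEIF3F and 389 TPM in shCON (-0.56). Only TOMM5 of these was past 2-fold. The exons of TOMM6 lie wholly within those of AL365205.1 on the same strand, listed at 2.6 TPM in shEIF3F and 3.99 TPM in shCON. Reads could have been split between them. TOMM5 likewise shares 14.3% of its exon bases on the same strand with AL138752.2, at 5.46 TPM in shEIF3F and 6.14 TPM in shCON.

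The gene of the TOM channel protein itself, TOMM40, was not among the symbols that the rule found. Its paralog TOMM40L was at 13.3 TPM in shEIF3F and 31.0 TPM in shCON (log2 ratio -1.16, and -0.81 relative to all genes). TOMM34, a mainly cytosolic co-chaperone of HSP70 and HSP90 and not a subunit of the complex, stood the other way at 34.6 TPM in shEIF3F and 24.6 TPM in shCON (0.47, and 0.83 relative to all genes).

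In the intermembrane space, the disulfide relay consists of CHCHD4, which oxidises cysteines of incoming proteins, and GFER, the sulfhydryl oxidase that recharges it. CHCHD4 was at 24.6 TPM in shEIF3F and 33.2 TPM in shCON (log2 ratio -0.42), and GFER at 32.0 TPM in shEIF3F and 22.5 TPM in shCON (0.49). Neither was past 2-fold as deposited. GFER had 0.85 relative to all genes and 1.253 with the GC trend removed, and its transcript is GC-rich (62.0%).

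The small TIM chaperones, substrates of that relay, work as ring-shaped hexamers of TIMM9 with TIMM10, or TIMM8A with TIMM13. TIMM13 had the lowest ratio of the family, at 23.3 TPM in shEIF3F and 133 TPM in shCON, 5.72-fold lower (log2 ratio -2.47, and -2.11 relative to all genes). TIMM10 was at 67.9 TPM in shEIF3F and 150.0 TPM in shCON (-1.13, and -0.78 relative to all genes). Its partner TIMM9 was at 46.5 TPM in shEIF3F and 37.6 TPM in shCON (0.30). TIMM8A, mutated in deafness-dystonia syndrome, was at 5.94 TPM in shEIF3F and 10.8 TPM in shCON (-0.77), and its paralog TIMM8B at 97.3 TPM in shEIF3F and 181 TPM in shCON (-0.89). The members of each hexamer therefore did not keep to one ratio: TIMM13 was far lower than either TIMM8 paralog, and TIMM10 lower than TIMM9.

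Of TIMM13's annotated exon bases, 13.0% are shared on the same strand with its neighbour LMNB2, which encodes lamin B2 and was itself at 20.2 TPM in shEIF3F and 153 TPM in shCON. How much of the TIMM13 value rests on shared bases was not tested. TIMM13 also has the most GC-rich transcript of the family (63.6%), and its ratio was -1.55 with the GC trend removed. TIMM8B and NKAPD1 overlap on opposite strands over 30.1% of TIMM8B's exon bases, and NKAPD1 was at 13.3 TPM in shEIF3F and 6.53 TPM in shCON. TIMM9 likewise overlaps KIAA0586 over 14.9% of its exon bases and TOMM20L over 11.5%. KIAA0586 was at 1.44 TPM in shEIF3F and 3.36 TPM in shCON. Without known strand use, reads of such pairs cannot be told apart.

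The promoter stretches that follow were picked by ratio and by motif together. TIMM13 and TIMM10 are among the 7 genes at least 2-fold lower, and TIMM10B and TIMMDC1 have the highest ratios of the family. All of these carry the same short motif because they were chosen for it. The promoter windows, described below, of PAM16, TIMM44 and TOMM40L, which were also at least 2-fold lower, do not hold that motif. Whether it relates to the ratios was not tested. PAM16, the lowest gene of the import motor, is added for its other motif. Each runs for 60 bases up to the RefSeq start site (130 for TIMMDC1), in GRCh38.p14. Capitals mark the ETS core, CCGGAAG on either strand, except in PAM16, where they mark the NRF1 motif GCGCNNGCGC. ETS factors such as GABPA, and NRF1, are known activators of nuclear genes for mitochondrial proteins. In TIMM10B the marked match overlaps a GC box by its last base.
TIMM13 (chr19:2427587-2427646, minus strand): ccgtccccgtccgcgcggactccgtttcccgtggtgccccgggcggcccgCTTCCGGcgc
TIMM10 (chr11:57530755-57530814, minus strand): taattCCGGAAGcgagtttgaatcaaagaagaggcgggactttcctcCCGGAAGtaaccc
PAM16 (chr16:4351322-4351381, minus strand): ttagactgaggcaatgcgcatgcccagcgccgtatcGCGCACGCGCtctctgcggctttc
TIMM10B (chr11:6481441-6481500, plus strand): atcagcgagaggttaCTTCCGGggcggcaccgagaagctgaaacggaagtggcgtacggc
TIMMDC1 (chr3:119498417-119498546, plus strand): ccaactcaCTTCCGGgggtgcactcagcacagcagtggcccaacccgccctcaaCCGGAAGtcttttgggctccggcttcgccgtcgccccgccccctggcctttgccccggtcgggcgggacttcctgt

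RefSeq promoter windows, 250 bases before to 50 after each start, were found for 31 of the 34 genes, with 34 windows in all. The ETS core was in 13 of these windows (38.2%), against 12.8% of the 22199 windows of protein-coding genes and 10.3% of all 35116 windows. The 13 genes with it included both TIMM13, lowest in ratio, and TIMMDC1, highest, but ratios of genes with and without it were not compared. The NRF1 motif was in 9 windows (26.5%, against 10.6% of coding windows and 8.32% of all), and the E-box CACGTG in 6 (17.6%, against 8.34% and 7.26%). The YY1 core ATGGCGG was in 5 windows (14.7%, against 6.99% and 5.55%), the GC box GGGCGG in 23 (67.6%, against 56.3% and 45.0%) and CCAAT in 8 (23.5%, against 34.7% and 34.6%). TGATGCAA, a core of the elements bound by ATF4 with C/EBP proteins, was in 1 window, that of TIMM22 (2.94%, against 0.676% and 0.866%). All motifs were searched on both strands. Counts are of windows, in the family and in the background alike, so a site in overlapping windows counts more than once. This holds for the NRF1 motif, E-box and GC box between HSPD1 and HSPE1 and for the GC boxes of DNAJC19. A match describes letters in a window and not binding.

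Within the TIM22 complex, which inserts carrier proteins, the subunits also went separate ways. TIMM10B, the small TIM that docks the chaperone hexamer on the complex, was at 19.2 TPM in shEIF3F and 10.75 TPM in shCON (log2 ratio 0.78, and 1.14 relative to all genes). TIMM22, the channel-forming subunit, was at 9.31 TPM in shEIF3F and 14.4 TPM in shCON (-0.58), and TIMM29, a subunit known in metazoans, at 14.9 TPM in shEIF3F and 21.4 TPM in shCON (-0.49). None was past 2-fold as deposited. TIMM10B shares 13.5% of its exon bases on the same strand with AC084337.2, listed at 0.23 TPM in shEIF3F and 1.01 TPM in shCON.

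Every gene of the TIM23 complex had a negative ratio and stayed within 2-fold, with log2 ratios between -0.94 and -0.14 as deposited, although TIMM21 and TIMM50 turned positive relative to all genes (0.22 and 0.20) and TIMM17B with the GC trend removed (0.05). The channel subunit TIMM23 was at 49.7 TPM in shEIF3F and 69.6 TPM in shCON (-0.48). Its near-identical copy TIMM23B was at 2.39 TPM in shEIF3F and 4.03 TPM in shCON (-0.57), and reads can be misassigned between them. TIMM17A, the more abundant of the paralogs that partner TIMM23, was at 22.9 TPM in shEIF3F and 44.9 TPM in shCON (-0.94), and TIMM17B at 6.67 TPM in shEIF3F and 11.2 TPM in shCON (-0.67). TIMM50, the presequence receptor on the inner side, was at 59.8 TPM in shEIF3F and 67.0 TPM in shCON (-0.16). TIMM21, which links TIM23 with respiratory chain assembly, was at 10.2 TPM in shEIF3F and 11.3 TPM in shCON (-0.14).

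The motor that drives import into the matrix held 2 of the 7 genes at least 2-fold lower. PAM16, the J-like protein that restrains the motor's J-domain partner, was at 93.9 TPM in shEIF3F and 246 TPM in shCON (log2 ratio -1.38, and -1.02 relative to all genes). With the GC trend removed PAM16 was within 2-fold (-0.93). TIMM44, which tethers HSPA9 to the channel, was at 33.9 TPM in shEIF3F and 79.5 TPM in shCON (-1.21, but -0.85 relative to all genes and -0.48 with the GC trend removed). HSPA9, the motor ATPase also called mortalin, was at 85.5 TPM in shEIF3F and 167 TPM in shCON (-0.96). DNAJC19, the J-domain partner of PAM16, stood apart from it at 60.7 TPM in shEIF3F and 57.0 TPM in shCON (0.09). Of the nucleotide exchange factors, GRPEL1 was at 29.3 TPM in shEIF3F and 34.97 TPM in shCON (-0.25, and 0.11 relative to all genes), and the scarcer GRPEL2 at 2.39 TPM in shEIF3F and 4.28 TPM in shCON (-0.64). PAM16 shares 21.9% of its exon bases with the readthrough gene CORO7-PAM16, which was listed at 0.28 TPM in shEIF3F and 0.22 TPM in shCON.

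The matrix chaperonin held the most abundant single transcript of the family in both libraries, HSPE1. This gene encodes the lid of the folding chamber and was at 448 TPM in shEIF3F and 749 TPM in shCON (log2 ratio -0.74), and HSPD1, which forms the chamber, at 273 TPM in shEIF3F and 313 TPM in shCON (-0.20, and 0.16 relative to all genes). Neither was past 2-fold. In both libraries HSPE1 was the more abundant per length, by 1.64 times in shEIF3F and 2.39 times in shCON. The table also lists 26 HSPE1 pseudogene entries, which summed to 1.16 TPM in shEIF3F and were listed at 0 in shCON. The 17 HSPD1 pseudogene entries summed to 0.07 TPM in shEIF3F and 0.03 TPM in shCON.

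HSPD1 and HSPE1 lie head to head and share the stretch between their starts, which is shown here because it lies upstream of both genes. The 104 bases between the outer HSPD1 start and the HSPE1 start hold 1 GC box (read on the minus strand), 1 NRF1 motif and 1 E-box, in that order and in capitals, without overlap. In GENCODE release 29 the exons of the pair overlap on opposite strands, over 14.2% of HSPE1's exon bases and 6.62% of HSPD1's. A second RefSeq start of HSPD1 lies 434 bases farther into the gene. Ahead of it lies the heat shock element TTCNNGAANNTTC, in capitals in the second sequence, where 2 matches on opposite strands overlap one another. That element was in 1 of the 34 windows of the family (2.94%), against 0.405% of coding windows and 0.49% of all.
HSPE1 (chr2:197500275-197500378, plus strand): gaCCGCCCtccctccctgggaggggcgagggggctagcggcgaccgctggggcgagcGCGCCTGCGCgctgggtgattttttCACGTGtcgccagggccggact
HSPD1 (chr2:197500063-197500090, minus strand): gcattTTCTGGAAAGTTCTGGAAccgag

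TIMMDC1, named for its kinship to the TIM proteins, is an assembly factor of respiratory complex I and not part of a translocase. It had the highest ratio of the family, at 111 TPM in shEIF3F and 63.8 TPM in shCON (log2 ratio 0.79, and 1.15 relative to all genes). Its exons overlap those of CD80 on the opposite strand, which was listed at 0 in both libraries.

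Ratios of partner genes within one library do not depend on how the libraries were scaled. They do keep the trend with transcript GC content. With that trend removed, TIMM8B (-0.72) and TIMM13 (-1.55) were within 2-fold of each other, as were TIMM50 (0.32) and TIMM44 (-0.48). GFER (1.25) and CHCHD4 (-0.22) were not, nor were TOMM6 (0.05) and TOMM5 (-0.97). Of 21 pairs of partners or paralogs, picked after their values were seen, 7 changed at least 2-fold and 5 stayed within 1.3-fold, as deposited. No share was computed for pairs drawn from all genes, so the count of changed pairs has no background. TIMM9 stood at 0.685 times the level of TIMM10 in shEIF3F and at 0.25 times in shCON. TIMM8B stood at 4.17 times the level of TIMM13 in shEIF3F and at 1.36 times in shCON. DNAJC19 was at 0.646 times PAM16 in shEIF3F and at 0.232 times in shCON, a 2.79-fold change as deposited. TIMM10B to TIMM10 moved the most of these pairs, with 0.282 in shEIF3F and 0.0717 in shCON.

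Other pairs kept close to the control proportion. The TIMM8A to TIMM8B ratio was 0.061 in shEIF3F and 0.0597 in shCON, that of TIMM29 to TIMM22 was 1.6 in shEIF3F and 1.49 in shCON, and that of TIMM17A to TIMM17B was 3.44 in shEIF3F and 4.01 in shCON. With the GC trend removed, TIMM29 (0.27) and TIMM22 (-0.30) lay farther apart, as did TIMM17A (-0.92) and TIMM17B (0.05). A TIMM8A pseudogene was listed at 1.14 TPM in shEIF3F and 0 in shCON, beside 5.94 and 10.8 TPM for TIMM8A itself. Whether reads were misassigned between them was not tested, so the closeness of the TIMM8A to TIMM8B ratios is uncertain. GFER exceeded CHCHD4 in shEIF3F at a ratio of 1.3 but not in shCON at 0.676, a change of 1.92 times.

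**Figure D3:**
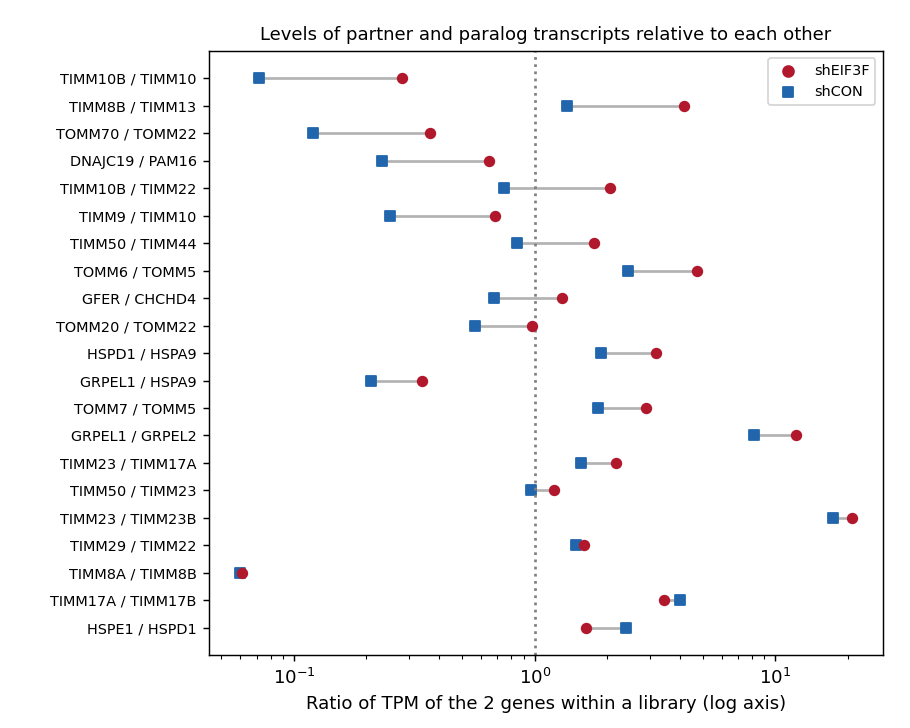
Ratio of the TPM of 2 partner or paralog genes within each library, on a log axis, with shEIF3F as red circles and shCON as blue squares. Which gene of a pair is on top was chosen freely, so the side to which a pair moves carries no meaning. TIMM10B / TIMM10 moved the most and TIMM8A / TIMM8B the least.

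The rest of the import pathway was read from lists of related genes, each to be set against the 25.5% of all genes that were at least 2-fold lower and the 8.45% that were higher. Of 7 genes for presequence processing and insertion, 0 were at least 2-fold lower and 2 higher. These were IMMP1L, a subunit of the inner membrane peptidase, at 46.3 TPM in shEIF3F and 16.1 TPM in shCON (log2 ratio 1.47), and the insertase OXA1L at 241 TPM in shEIF3F and 119.96 TPM in shCON (1.00). The presequence peptidase subunit PMPCA was at 70.01 TPM in shEIF3F and 107 TPM in shCON (-0.61, and 0.12 with the GC trend removed) and the intermediate peptidase MIPEP at 9.81 TPM in shEIF3F and 18.2 TPM in shCON (-0.83).

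Of 12 measured genes of the SAM and MICOS complexes, which insert outer membrane barrels and shape cristae, 3 (25%, against 25.5% of all genes) were at least 2-fold lower and 0 higher. They were MTX1, at 63.5 TPM in shEIF3F and 236 TPM in shCON (log2 ratio -1.88), MICOS13 (-1.60) and CHCHD6 (-1.37). DNAJC11 was next, at 22.4 TPM in shEIF3F and 44.6 TPM in shCON (-0.97). The core barrel insertase SAMM50, picked after its values were seen, was at 39.5 TPM in shEIF3F and 47.4 TPM in shCON (-0.26, and 0.10 relative to all genes). With the GC trend removed, 0 of the 10 with a GC value were past 2-fold, and MICOS10 and MICOS13 had none.

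Among 7 other import partners measured, 2 (28.6%, against 25.5% of all genes) were at least 2-fold lower and 1 higher. CHCHD2 was at 620.4 TPM in shEIF3F and 1866 TPM in shCON (log2 ratio -1.59) and the outer membrane insertase MTCH1 at 55.2 TPM in shEIF3F and 149 TPM in shCON (-1.41, but -0.69 with the GC trend removed). CHCHD10, a close relative of CHCHD2, was at 450.1 TPM in shEIF3F and 215 TPM in shCON (1.06). ROMO1, a small subunit linked to TIM23, was at 495 TPM in shEIF3F and 721 TPM in shCON (-0.54, and 0.22 with the GC trend removed). DNAJC15, a paralog of DNAJC19, was listed at 0 in both libraries.

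Among 13 mitochondrial proteases and other chaperones, 4 (30.8%, against 25.5% of all genes) were at least 2-fold lower and 0 higher. The disaggregase CLPB was at 7.31 TPM in shEIF3F and 30.7 TPM in shCON (log2 ratio -1.93), the matrix protease LONP1 at 79.4 TPM in shEIF3F and 212 TPM in shCON (-1.41), the co-chaperone DNAJA3 at 31.9 TPM in shEIF3F and 86.8 TPM in shCON (-1.41) and the protease subunit CLPP at 105 TPM in shEIF3F and 247 TPM in shCON (-1.23). CLPP was within 2-fold relative to all genes (-0.87), and LONP1, DNAJA3 and CLPP with the GC trend removed (-0.49, -0.89 and -0.31).

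Cytosolic chaperones that hand precursors to TOM had 2 of 9 genes (22.2%, against 25.5% of all genes) at least 2-fold lower, DNAJA2 (log2 ratio -1.28) and DNAJB1 (-1.02), both within 2-fold relative to all genes. HSPA8, the constitutive HSP70, was at 1186 TPM in shEIF3F and 599 TPM in shCON (0.98, and 1.34 relative to all genes). HSP90AA1 was at 24.2 TPM in shEIF3F and 47.5 TPM in shCON (-0.94).

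Regulators that other work ties to mitochondrial stress and biogenesis were also measured. ATF5, a transcription factor of the mitochondrial unfolded protein response, was at 14.3 TPM in shEIF3F and 38.2 TPM in shCON (log2 ratio -1.36, and -0.997 relative to all genes, just short of 2-fold). The deacetylase SIRT3 was at 7.92 TPM in shEIF3F and 25.2 TPM in shCON (-1.56), and CEBPB at 8.28 TPM in shEIF3F and 13.3 TPM in shCON (-0.63, and 0.52 with the GC trend removed). DDIT3 was at 46.0 TPM in shEIF3F and 25.04 TPM in shCON (0.85, but 1.21 relative to all genes and 1.05 with the GC trend removed). Of 6 such stress regulators, 2 (33.3%, against 25.5% of all genes) were at least 2-fold lower and 0 higher. Relative to all genes, and also with the GC trend removed, 1 was lower and 1 higher. Of 11 measured biogenesis regulators, 3 (27.3%, against 25.5% of all genes) were lower and 0 higher: MYC at 36.7 TPM in shEIF3F and 228 TPM in shCON (-2.60), the nuclear receptor ESRRA at 31.0 TPM in shEIF3F and 118 TPM in shCON (-1.90, and -0.98 with the GC trend removed), and the coactivator PPARGC1B at 0.88 TPM in shEIF3F and 4.98 TPM in shCON (-1.67). NRF1 was at 4.84 TPM in shEIF3F and 9.14 TPM in shCON (-0.80). GABPA, GABPB1 and YY1 were picked after their values were seen. GABPA was at 1.31 TPM in shEIF3F and 1.58 TPM in shCON (-0.16). GABPB1 was at 14.5 TPM in shEIF3F and 8.02 TPM in shCON (0.78, and 1.14 relative to all genes). YY1 was at 28.5 TPM in shEIF3F and 17.8 TPM in shCON (0.65, and 1.01 relative to all genes). Relative to all genes, 3 of the 11 biogenesis regulators were at least 2-fold lower and 2 higher, against 16.0% and 14.7% of all genes. With the GC trend removed, 2 were lower and 0 higher.

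**Figure D4:**
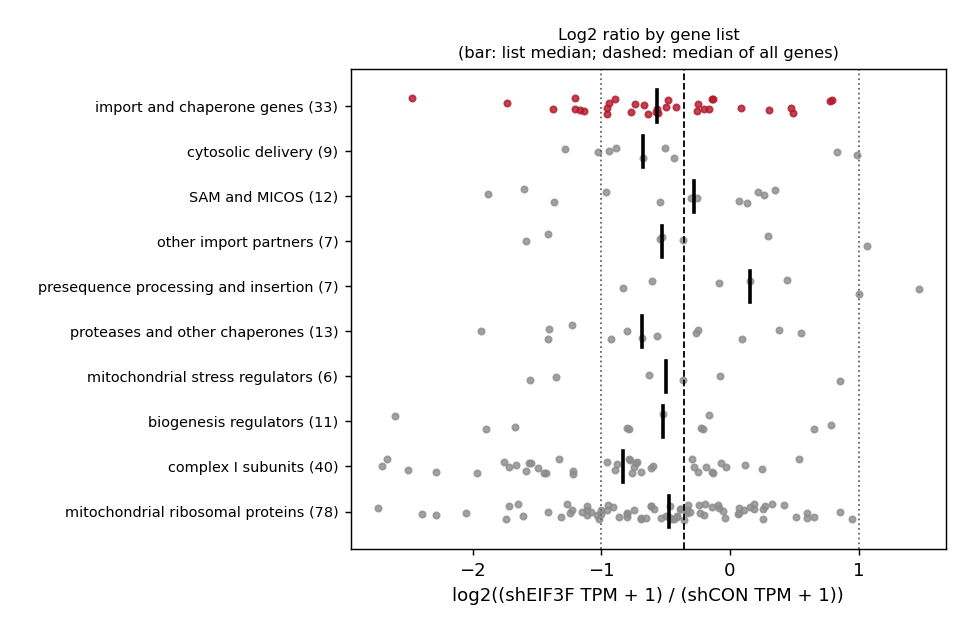
Log2 ratio of each measured gene in the import family (red) and in related lists (grey), with the number of genes in brackets. Bars are list medians, the dashed line is the median of all genes (-0.36) and dotted lines mark 2-fold. The family median is -0.57, that of the complex I symbols -0.83 and that of presequence processing and insertion 0.16.

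The main clients of import gave a further comparison, described by counts since no test was possible. Of 40 genes with NDUFA, NDUFB, NDUFC, NDUFS or NDUFV symbols, nearly all complex I subunits, 17 (42.5%, against 25.5% of all genes) were at least 2-fold lower and 0 higher, with a median log2 ratio of -0.83. The lowest were NDUFA4L2, a relative of a complex IV subunit (-2.70), NDUFB3 (-2.67), NDUFAB1 (-2.50) and NDUFS7 (-2.29). The 40 also include a pseudogene, NDUFV2P1, at 1.01 TPM in shEIF3F and 1.21 TPM in shCON (-0.14). Of 78 mitochondrial ribosomal protein genes, 21 (26.9%, close to the 25.5% of all genes) were at least 2-fold lower and 0 higher, with a median of -0.47, and MRPL24 (-2.73), MRPL23 (-2.39), MRPS34 (-2.29) and MRPS12 (-2.05) were the lowest. Relative to all genes, the counts of lower genes were 14 for the complex I symbols and 9 for the ribosomal proteins, where 16.0% of all genes were lower. With the GC trend removed they were 10 and 7, where 14.0% of all genes were lower. The import family, at -0.57 and 21.2%, had a median between those groups and a share of lower genes below both.

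Transcript GC content moved with the ratios across the whole library (Spearman's rho -0.318 over 13032 genes, which share both libraries and are not independent replicates). Over the 33 import genes rho was -0.239. Their GC content ran between 38.9% and 63.6% with a median of 46.9%, lower than the 50.5% of all genes. The GC-rich TIMM29 (61.1%) and TIMM17B (60.2%) had ratios of -0.49 and -0.67 as deposited and of 0.27 and 0.05 with the trend removed. TOMM22, at 46.9% GC, moved little, with -1.73 and -1.50.

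**Figure D5:**
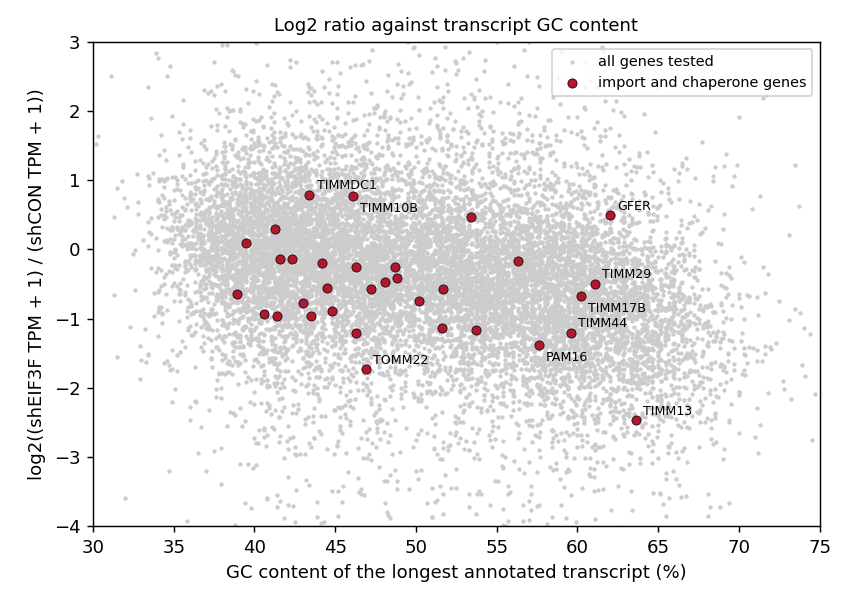
Log2 ratio against the GC content of the longest annotated transcript, for all genes tested (grey) and the 33 import and chaperone genes (red). Genes beyond the axis limits are not drawn. TIMM13 lies lowest at 63.6% GC, whereas GFER at 62.0% GC lies above 0.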

How the data were processed

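RNA was taken from 22Rv1 cells with a control vector or a hairpin against EIF3F, 1 library each. Libraries were made from Trizol-extracted RNA with an Illumina TruSeq kit, per the labels' protocols. The authors computed TPM for each gene and deposited these values with 2 decimals. Per the submitters' processing notes, CASAVA, HISAT2 and hg19 were used. For the counter, annotation and use of strand, nothing is stated in the sources used here, so antisense or overlapping genes may share reads. Columns were matched to groups by the sample descriptions and titles.

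Of 58884 entries, 27 with symbols turned into dates and 5531 symbols of small RNA genes were left out, and entries repeating a symbol were summed. Each member had 1 entry. Ratios used a pseudocount of 1, and genes had to average at least 1 TPM. At least 2-fold was a fixed rule of size, since no test is possible with 1 library per group. TPM keeps no read number, so no interval or detection limit was computed. The members and lists were chosen with earlier results of these data known. All members are named, as are up to 4 genes per related list with the largest absolute ratio; the defining markers PTPRC, VWF and CDH5, a gene listed at 0 (DNAJC15), and genes said to be so were picked after their values were seen. Alternatives were pseudocounts of 0.1 and 5, no minimum or a mean of 5 TPM, centring on the median of all genes, rescaling without the 100 most abundant genes, the most abundant entry per symbol, and centring within 20 bins of transcript GC content or length. GC content, length and exon overlap came from GENCODE release 29, with a value for 97.9% of genes and all 33 members tested. Promoter sequences are RefSeq's, on GRCh38.p14; the table itself holds no coordinates. The ratio steps were tested on simulated data. Python 3.11.15, NumPy 2.4.6, pandas 2.3.3, SciPy 1.17.1 and matplotlib 3.10.9 were used.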

Additional observations from a re-analysis of the deposited data

How the results depend on the processing

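The 7 import and chaperone genes at least 2-fold lower became 3 after centring on the median of all genes, and 2 after rescaling without the 100 most abundant genes, with the GC trend removed or with the length trend removed. Each of those 4 settings also gave 2 genes at least 2-fold higher, against 0 as deposited. Centring adds 0.36 to each ratio, and rescaling moved ratios by a median of 0.38, so genes near the limit crossed it. With a pseudocount of 5 the lower count was 6, as TOMM40L dropped out, and it stayed at 7 with a pseudocount of 0.1, no minimum, a mean of 5 TPM or the most abundant entry per symbol. The family median was negative under every setting, between -0.62 (pseudocount 0.1) and -0.18 (length trend removed). Of all genes, 3399 were at least 2-fold lower as deposited, against 1897 with a pseudocount of 5, 2130 after centring, 2150 after rescaling, 1818 with the GC trend removed and 2132 with the length trend removed. For genes at least 2-fold higher, 1124 as deposited compare with 475, 1958, 1971, 1724 and 1898 under the same settings and 616 at a mean of 5 TPM. Genes at least 2-fold higher were 24.9% of those past 2-fold as deposited and 47.9% after centring. No paired analysis was possible because each group has 1 library. The depth is unknown, so the precision of low values such as GRPEL2 or TIMM23B cannot be given.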

Other observations

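In GENCODE release 29, 9 of the 34 genes have a protein-coding neighbour that starts within 1000 bases on the opposite strand, measured between the outermost annotated starts. HSPD1 and HSPE1 are not among them, since their outermost starts in that annotation lie 16743 bases apart. Of 7 pairs with a ratio for both genes, 2 had the same sign as deposited and 5 had opposite signs. No share was computed for head-to-head pairs of all genes, so these counts have no background. TIMM8B, whose start lies beside that of SDHD, a subunit of respiratory complex II, was at 97.3 TPM in shEIF3F and 181 TPM in shCON, and SDHD at 60.5 TPM in shEIF3F and 92.7 TPM in shCON, with log2 ratios of -0.89 and -0.61. TIMM29 and its neighbour YIPF2 were the other pair with the same sign (-0.49 and -0.76). GFER and NOXO1, an organiser of an NADPH oxidase, lay on opposite sides, at 32.0 TPM in shEIF3F and 22.5 TPM in shCON for GFER (log2 ratio 0.49) and 2.65 TPM in shEIF3F and 6.81 TPM in shCON for NOXO1 (-1.10). TIMM10B and ARFIP2 did so too (0.78 and -0.57), although their exons overlap on opposite strands and reads cannot be told apart without strand. The remaining pairs of opposite sign were CHCHD4 with TMEM43 (-0.42 and 0.33), TIMM17B with PQBP1 (-0.67 and 0.07) and TIMM9 with KIAA0586 (0.30 and -0.84). The same limit of strand holds for TIMM9 with KIAA0586, TIMM17B with PQBP1 and TIMM8B with SDHD. Their exons overlap over 14.9%, 3.01% and 2.23% of the exon bases of TIMM9, TIMM17B and TIMM8B, against 1.09% for TIMM10B with ARFIP2.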
